A study of Rattus norvegicus with 6 samples.

Results

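The sodium-potassium pump moves sodium out of a cell and potassium into it against their gradients, using ATP. It pairs a catalytic alpha subunit with a beta subunit, a glycoprotein that carries the alpha subunit to the membrane, and a small FXYD protein can join the pair and tune its affinity for sodium. In the kidney the pump sits in the basolateral membrane of the tubule cells and drives sodium reabsorption along the nephron. The genes described here are 6 members of these families, taken by name: the beta subunits Atp1b1, Atp1b2 and Atp1b3, and the FXYD genes Fxyd2, Fxyd4 and Fxyd5. They stand among 15645 genes that a probe of the array could be matched to. Probes were named through their RefSeq accessions, and 5 of the 6 genes had a matched probe, 9 probes in all. Of these probes 8 passed the filter on dim spots, which asked for a signal well above background on 3 or more arrays of 6, and were tested. No probe could be matched to Fxyd4, the collecting duct member also called CHIF, and it was not analysed here.

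Messenger RNA was measured in renal cortex from male rats of the Sprague-Dawley strain, bought at 5 weeks of age. The DNPT group was 3 rats dosed for 4 weeks with N,N'-dinitrosopentamethylenetetramine, which belongs to the N-nitroso compounds (200 mg/kg/day); the labels used here do not say what carried the dose. In the vehicle group, 3 rats were given corn oil for 4 weeks. Each rat's RNA went on a 1-colour Agilent array of its own (the treatment protocol counts 3 animals in each arm). Signals are given in log2 units above or below the 75th percentile of the same array, so that 0 is the level of that percentile. A change is DNPT minus vehicle on this scale, with its standard error (SE). Levels are not set against each other between genes, because probes differ in brightness for the same amount of RNA.

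Probes well above background numbered 42985, 43402 and 42116 in DNPT replicates 1 to 3. In vehicle replicates 1 to 3 they numbered 44853, 45167 and 44730. The 75th percentile signal before scaling was 1112, 953 and 996 in DNPT rats, against 1247, 1329 and 1164 in vehicle rats. Both measures were lower on every DNPT array than on every vehicle array. The part of this difference in the changes was not tested. With 3 rats in each group, all estimates are imprecise. The 3 vehicle arrays and DNPT replicate 1 lay on slide 1 and were scanned on day 1, while DNPT replicates 2 and 3 lay on slide 2 and were scanned on day 2. All DNPT arrays lay in row 2 of their slide and all vehicle arrays in row 1, so the array row and the treatment cannot be told apart. All 10 proximal tubule markers passed the filter, among them the phosphate carrier gene Slc34a1, whose mean signal was 8.51 ± 0.14 over DNPT rats and 8.42 ± 0.22 over vehicle rats (SD, n = 3 each). Passing the filter does not by itself mark a tissue, because all 4 liver markers passed too. Summed on a linear scale, the liver markers were at 0.69, 0.09 and 21.8 in DNPT replicates 1 to 3. In vehicle rats they were at 0.09 to 2.53. The source of the high value in DNPT replicate 3 was not tested. The kidney sample is bulk tissue, in which fewer cells of a type and less RNA per cell cannot be told apart.

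The comparison of the groups asks which transcripts of the cortex differ after DNPT dosing, and here whether those of the pump's beta and FXYD subunits do. None of the 5 tested genes differed between DNPT and vehicle rats beyond the spread between rats. Their changes lay between 0.03 and 0.23, with a median of 0.10, against a median of 0.01 over all features. limma with Benjamini-Hochberg adjustment over 34915 features called 0 of the 5, and it called 0% of all features. Without DNPT replicate 1, 40 features were called higher and 583 lower, and without vehicle replicate 2, 3 were called higher, with 0 of the 5 genes among them. An unadjusted p under 0.05 was reached by 0 of the 5 genes and by 12.1% of all features. All 5 changes were positive, while 48.1% of all features had a negative one. Among the 12687 named genes tested, 7231 had a positive change, and the median was 0.04. The shared sign of the 5 genes depended on the scaling. All 5 were positive with median scaling and in the deposited value table, while 2 were negative after quantile normalization and 3 after background correction by normexp followed by quantile normalization. In DNPT replicate 1, the only DNPT rat on slide 1, 3 of the 5 genes lay below the vehicle mean.

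**Figure D1:**
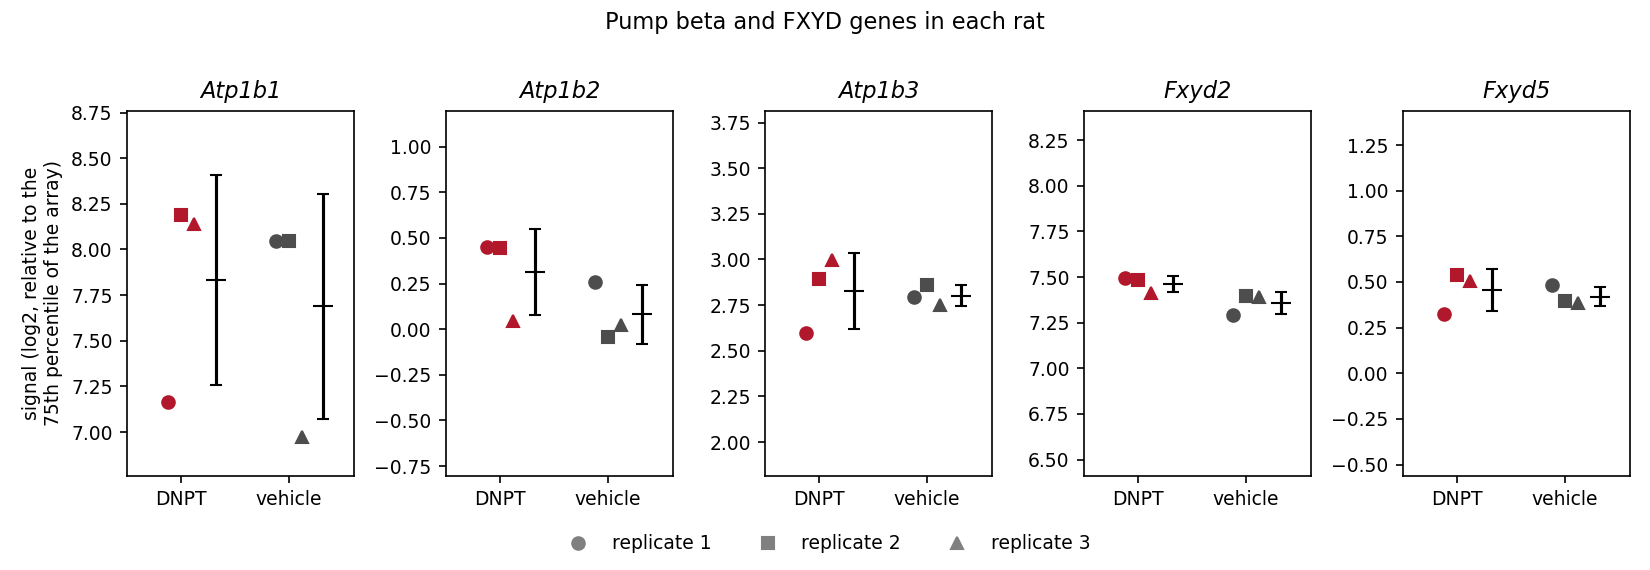
Signal of the 5 measured genes in each rat, on a log2 scale relative to the 75th percentile of the array, with DNPT in red and vehicle in grey. Marker shapes give the replicate number, each black bar is the mean with its SD over 3 rats, and each panel spans 2 log2 units. The Atp1b1 points spread over more than 1 log2 unit within both groups, and those of Fxyd2 lie close together.

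Atp1b1 encodes the main beta subunit of the tubule pump. Its single probe (A_44_P435604) was among the brightest 1% of the features tested and was not saturated on any array. Signals were 7.17, 8.19 and 8.14 in DNPT replicates 1 to 3, against 8.05, 8.05 and 6.98 in vehicle replicates 1 to 3. DNPT replicate 1 and vehicle replicate 3 were low, the other 4 rats lay close together, and the groups overlapped. The change was 0.14 (SE 0.41; limma, unadjusted p = 0.739, adjusted p = 0.896), and its 95% interval ran from a 0.547-fold to a 2.23-fold level. The range over the 6 rats, 1.22 log2 units, was larger than that of 96.3% of the 350 brightest features. The interval is wide because the values spread within each group. Each rat had an array of its own, so a spread between rats and a spread between arrays cannot be told apart.

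The 2 low Atp1b1 arrays shared a position, column 4 of slide 1. The other 4 arrays were in columns 2 and 3, with 1 DNPT and 1 vehicle array in each column, and the mean of the column 4 arrays was 1.03 log2 units below theirs. Within a column the DNPT array minus the vehicle array was 0.15 in column 2, 0.09 in column 3 and 0.19 in column 4. With the array column as a block, an alternative chosen after these values were seen, the change kept its size and its SE fell to 0.08 (adjusted p = 0.472), so the gene was not called there either. A gap of at least 0.88 with both column 4 arrays below the 4 others, as large as that of Atp1b1, was present in 246 of the 34915 features, and 81 features had such a gap in the opposite direction. The spots around the Atp1b1 spot were read as well. Over the 31 tested probes within 2 rows and 4 columns of it, the median deviation from each probe's own mean was -0.11 in DNPT replicate 1 and 0.03 in vehicle replicate 3, where Atp1b1 itself deviated by -0.59 and -0.79. The value of DNPT replicate 1 was the lowest of the 6 neighbour medians, and those of the other 5 arrays lay between 0.017 and 0.070. The part of array position in the Atp1b1 values was not tested beyond this.

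**Figure D2:**
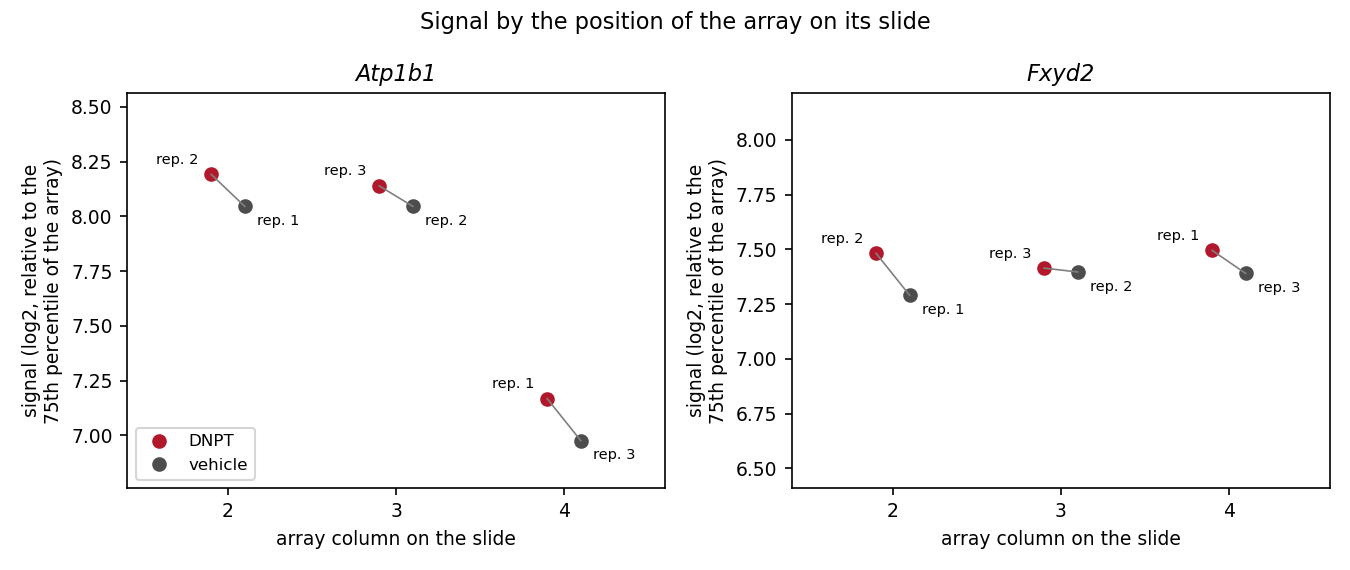
Signal of Atp1b1 and Fxyd2 (log2, relative to the 75th percentile of the array) by the column of the array on its slide, with DNPT in red to the left of vehicle in grey and the 2 arrays of a column joined. For Atp1b1 both column 4 arrays lie below the other 4, and the DNPT array is above the vehicle array in each of the 3 columns. For Fxyd2 no column stands apart.

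Atp1b2 encodes the beta2 subunit, best known from glia, where it also acts as an adhesion molecule. Its brightest probe (A_43_P10996) read 0.45, 0.44 and 0.04 in DNPT rats, against 0.26, -0.04 and 0.02 in vehicle rats. DNPT replicates 1 and 2 lay above all vehicle rats, and DNPT replicate 3 lay among them. The change of 0.23 (SE 0.15; limma adjusted p = 0.531) was the largest of the 5, with a 95% interval from 0.905-fold to 1.53-fold. With each rat left out in turn, the change ran from 0.16 to 0.37. The highest value came without DNPT replicate 3 (limma, unadjusted p = 0.0342, adjusted p = 0.588). No other omission gave an unadjusted p under 0.05. Of the other 2 probes of the gene, both far dimmer, one was well above background on 3 arrays and had a change of -0.13 (SE 0.33), and the other was well above background on 1 array and was not tested. With the tested probes averaged, the change of the gene was 0.05.

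Atp1b3 encodes the beta3 subunit, which is found in many tissues and in blood cells. Its probe (A_42_P555125) read 2.60, 2.89 and 3.00 in DNPT rats, against 2.79, 2.86 and 2.75 in vehicle rats. The DNPT values surrounded the vehicle values, with DNPT replicate 1 the lowest of the 6 rats and DNPT replicate 3 the highest. The change was 0.03 (SE 0.12; limma adjusted p = 0.934), and the 95% interval ran from 0.824-fold to 1.26-fold. Means were 2.83 ± 0.21 in DNPT rats and 2.80 ± 0.06 in vehicle rats (SD, n = 3 each). Within slide 1, where DNPT replicate 1 is set against the 3 vehicle rats, the change was -0.20.

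Fxyd2 encodes the gamma subunit, a kidney-rich regulator that lowers the affinity of the pump for sodium in several tubule segments. Its brightest probe (A_42_P506685) read 7.50, 7.48 and 7.41 in DNPT rats, against 7.29, 7.40 and 7.39 in vehicle rats. The 3 DNPT values were all higher than the 3 vehicle values, an order that 11.9% of all features shared, but DNPT replicate 3 and vehicle replicate 2 almost met. Fxyd2 was the only one of the 5 genes whose groups did not overlap, 1 of 5 against 20.2% of all features in either direction, and in 0 of 5 did all DNPT values lie lower, against 8.32% of all features. The change was 0.10 (SE 0.08; limma adjusted p = 0.578), with a 95% interval from 0.940-fold to 1.23-fold. The second probe read 6.36, 6.41 and 6.34 in DNPT rats, against 6.19, 6.39 and 6.36 in vehicle rats, so that its groups overlapped, and its change was 0.06 (SE 0.09). The Fxyd2 signal varied little, with a range over the 6 rats (0.21 log2 units) larger than that of 8.25% of all features.

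The probes of Fxyd2 and Atp1b1 belong to the 350 brightest features, whose values are given here beside theirs. Of the 350 brightest features, 310 had a positive change, and their median was 0.15. Set against the vehicle mean, the median of these features was 0.06 higher in DNPT replicate 1, while replicates 2 and 3 had medians of 0.24 and 0.15. Against their own vehicle means, Fxyd2 was at 0.14, 0.12 and 0.06 in DNPT replicates 1 to 3, and Atp1b1 was at -0.52, 0.50 and 0.45. The part of probe brightness in the changes of Fxyd2 and Atp1b1 was not tested. After quantile normalization, which gives every array the same distribution of signals, the Fxyd2 change was -0.051, and it was -0.021 with normexp in addition.

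Fxyd5 encodes dysadherin, a glycosylated FXYD protein that acts on cell adhesion through the beta1 subunit as well as on the pump. Its brighter probe (A_64_P083600) read 0.33, 0.54 and 0.51 in DNPT rats, against 0.48, 0.40 and 0.38 in vehicle rats. The groups overlapped, and DNPT replicate 1 was the lowest of the 6 rats. The change was 0.04 (SE 0.09; limma adjusted p = 0.882), with a 95% interval from 0.875-fold to 1.20-fold. The second probe gave a change of -0.01 (SE 0.10), so both probes placed the gene near 0.

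The intervals state which differences these 6 arrays leave possible. Those of Fxyd2, Fxyd5 and Atp1b3 all lay within 0.824-fold to 1.26-fold, while that of Atp1b1 was far wider. A p that misses the threshold does not show that the levels of a gene were equal.

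The remaining beta gene, Atp1b4, and 4 other FXYD genes were examined beside them. The 4 FXYD genes passed the filter, and Atp1b4 was not well above background on any array. None of the 4 passed over all features, and 1 reached an unadjusted p under 0.05, as did 12.1% of all features. Fxyd6, a FXYD member best known from brain, was that gene. Its brighter probe read 4.07, 4.30 and 3.92 in DNPT rats, against 3.64, 3.48 and 3.71 in vehicle rats, a change of 0.49 (SE 0.13; limma, unadjusted p = 0.00978, adjusted p = 0.355). The dimmer probe of the gene read -1.69, -2.17 and -2.18 in DNPT rats, against -1.71, -1.79 and -1.70 in vehicle rats, a change of -0.28 (SE 0.15). The first probe was higher in all 3 DNPT rats, and the second was low on the 2 arrays of slide 2, so the probes of Fxyd6 disagree. The 2 probes of Fxyd3 disagreed as well, with changes of 0.54 (SE 0.56) and -0.25 (SE 0.14). Fxyd1, the phospholemman of heart and muscle, had a change of -0.02 (SE 0.28), and its 2 lowest rats, DNPT replicate 1 at -2.13 and vehicle replicate 3 at -2.24, were those that were low for Atp1b1. Fxyd7 had a change of -0.15 (SE 0.18).

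**Figure D3:**
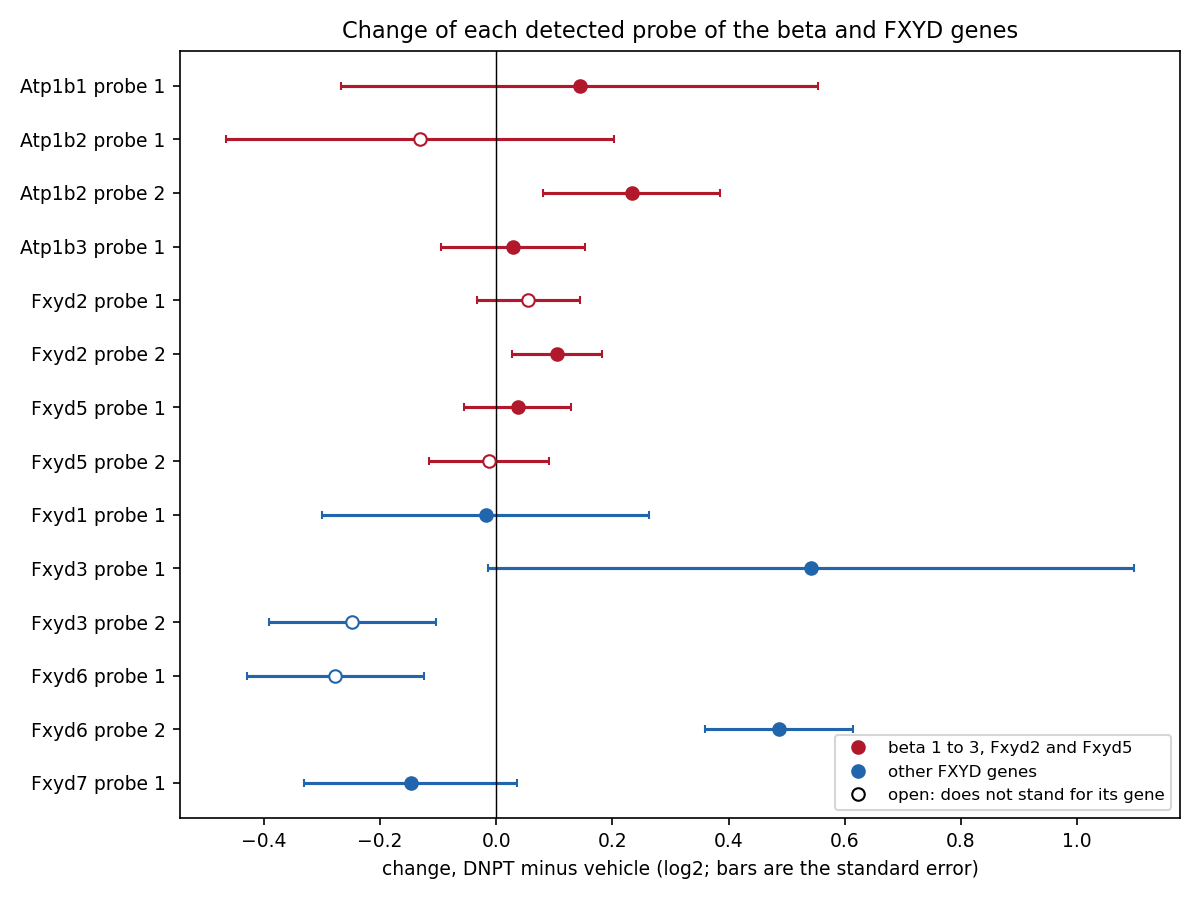
Change of each beta and FXYD probe that passed the filter (log2, DNPT minus vehicle), with bars for the standard error. Filled points are the brightest probe of a gene, which stands for it, and open points are its other probes. The 8 red points, of Atp1b1, Atp1b2, Atp1b3, Fxyd2 and Fxyd5, lie between -0.13 and 0.23, and the filled and open points of Fxyd6 lie on opposite sides of 0.

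Genes that work with the pump were taken from 4 lists. The list of sodium transporters and channels holds the carriers and channels that bring sodium into tubule cells, with the basolateral carriers Slc4a4 and Slc13a3. All 12 were tested and 0 passed over all features. An unadjusted p under 0.05 was reached by 5 with a positive and 1 with a negative change, against 5.95% and 6.16% of all features, and the median change was 0.21. That median was 0.10 after quantile normalization and 0.048 with normexp in addition. Scnn1g, the gamma subunit of the epithelial sodium channel, had a mean of 2.76 ± 0.09 over DNPT rats and 2.21 ± 0.19 over vehicle rats (SD, n = 3 each; change 0.55, SE 0.12; limma adjusted p = 0.334). Slc5a2, the sodium-glucose cotransporter of the early proximal tubule, averaged 7.61 ± 0.09 in DNPT rats and 7.19 ± 0.15 in vehicle rats (change 0.42, SE 0.11; limma adjusted p = 0.354). Slc13a3, a dicarboxylate carrier, had the brightest probe of the list and a change of 0.22 (SE 0.10).

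Potassium and chloride channels and the potassium-chloride cotransporters return ions that the pump or its partners move. Of 11 such genes, 6 had positive changes with a median of 0.04, and 0 passed over all features. The median was -0.0068 after quantile normalization, -0.034 with normexp in addition and -0.041 with the probes of each gene averaged, so it had no settled sign. Slc12a4, a potassium-chloride cotransporter, had a change of 0.39 (SE 0.14; limma adjusted p = 0.399). Kcnj1, the apical potassium channel ROMK, had one of -0.35 (SE 0.14; limma adjusted p = 0.410), and Kcnj16, a basolateral potassium channel subunit with the brightest probe of the list, one of 0.19 (SE 0.11). Among 17 tested genes of pump regulation and anchoring, 5 with a positive and 1 with a negative change reached an unadjusted p under 0.05. The shares over all features were 5.95% and 6.16%. Of the 17 genes 0 passed over all features (median change 0.17). The median of these genes was 0.098 after quantile normalization, 0.086 with normexp in addition and 0.074 with the probes of each gene averaged. Ank3, an ankyrin that ties membrane proteins to the cytoskeleton, had a change of 0.52 (SE 0.12; limma adjusted p = 0.329), and Stk39, the kinase SPAK that acts on chloride cotransporters, one of 0.33 (SE 0.08; limma adjusted p = 0.353). Pdzk1, a scaffold of proximal tubule carriers, was the brightest of the list at 0.17 (SE 0.12). Sgk1, a steroid-induced kinase that raises sodium channel and pump activity, was picked out after its values were seen. It read 1.42, 2.61 and 2.63 in DNPT rats, against 3.38, 3.31 and 3.59 in vehicle rats (change -1.20, SE 0.35; limma adjusted p = 0.373).

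The related cation pumps served as a further set. Of 9 tested, 0 reached an unadjusted p under 0.05, against 12.1% of all features. Their median change was 0.06, and it was -0.057 with slide as a fixed block and -0.011 with slide as a random block. Atp4a and Atp4b, the subunits of the gastric proton pump, had changes of -0.29 (SE 0.15) and -0.33 (SE 0.21), and the calcium pump gene Atp2a2, with the brightest probe of the set, had one of 0.06 (SE 0.18).

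**Figure D4:**
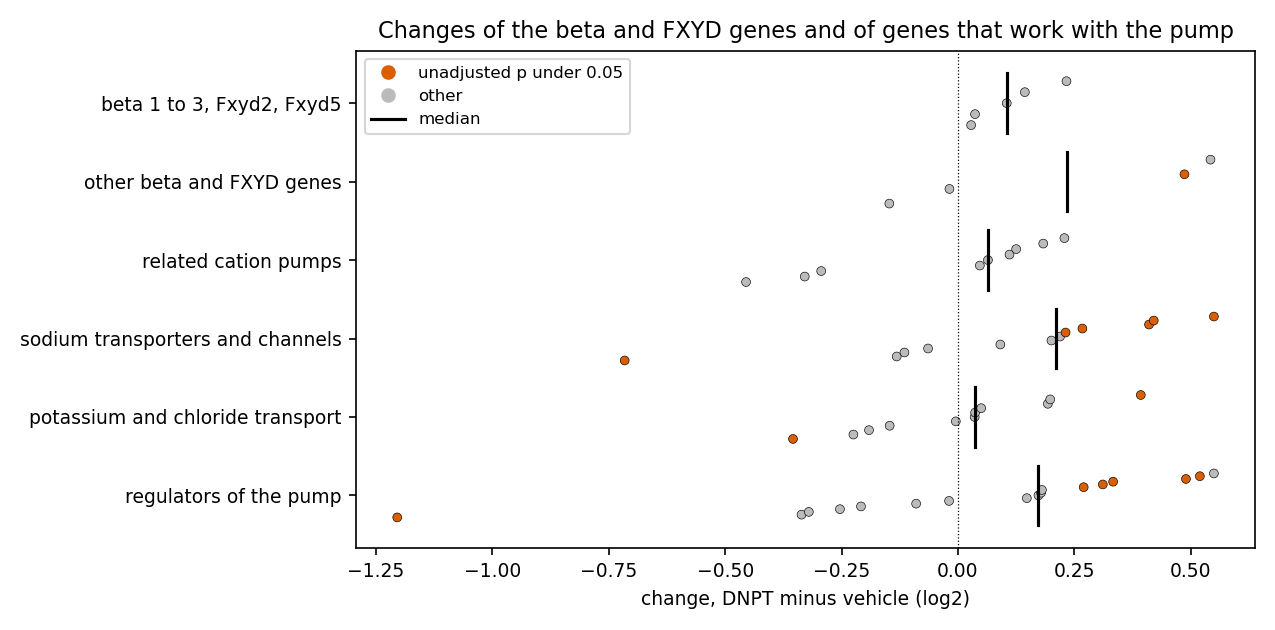
Change of each tested gene (log2, DNPT minus vehicle) for the 5 measured beta and FXYD genes, the other beta and FXYD genes and 4 lists of related genes. Orange points have an unadjusted p under 0.05, black bars are list medians, and the points of a list are spread vertically for clarity only. The 5 measured genes lie between 0.03 and 0.23 with no orange point, and their median of 0.10 lies inside the range of the other medians, 0.04 to 0.23.

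Markers of tubule segments and of blood cells were set beside these values. For reference, 51.9% of all features and 88.6% of the 350 brightest had a positive change. In 20.2% of all features, taken singly, the groups did not overlap. The part of probe brightness in the marker counts and sums was not tested. Of the proximal tubule markers, 9 of 10 had positive changes, and their summed level on a linear scale ran from 2517 to 2854 in DNPT rats and from 2175 to 2394 in vehicle rats. After quantile normalization 6 of the 10 were positive, and the median change was 0.061 there, 0.025 with normexp in addition (again 6 of 10) and 0.17 without either. For the thick ascending limb 1 of 7 was positive, with sums of 279 to 380 in DNPT rats and 314 to 381 in vehicle rats. For the distal convoluted and connecting tubule 5 of 6 tested markers were positive, with a median change of 0.32. Their sums were 191 to 239 in DNPT rats and 181 to 208 in vehicle rats. A linear sum mostly follows the brightest probes of its list. Here that was Klk1 (change 0.16), and for the thick ascending limb it was Umod (change -0.17). All 8 intercalated cell markers and 6 of 8 principal cell markers were positive. The intercalated count was 7 with normexp and quantile normalization, with slide as a fixed block, on slide 1 alone and without DNPT replicate 1. Intercalated sums were 170 to 191 in DNPT rats and 128 to 167 in vehicle rats. Principal sums were 175 to 218 in DNPT rats and 187 to 197 in vehicle rats. The 6 red blood cell markers were all positive, with sums of 701 to 788 in DNPT rats and 544 to 670 in vehicle rats, and those of lymphocytes had sums of 3.15 to 3.51 in DNPT rats and 3.52 to 3.98 in vehicle rats. No marker of these lists passed over all features. The part of these cell types in the values of the pump genes was not tested.

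Across the 6 rats, the named genes whose pattern was most like that of Atp1b1 were Efemp1 (Pearson r = 0.999) and Hist1h2an (r = 0.998). Efemp1 read 0.10, 1.06 and 0.96 in DNPT rats, against 0.91, 0.88 and -0.01 in vehicle rats, and was thus low in the same 2 rats. Phlpp1 (r = 0.996) and Dram2 (0.994) were most like Atp1b2, Casp9 (0.992) and Sstr1 (0.986) most like Atp1b3, Nup107 (0.985) and Lynx1 (0.982) most like Fxyd2, and H6pd (0.993) and Scrn2 (0.983) most like Fxyd5. These were the highest of 12675 values for each gene over the same 6 arrays, and 342 genes had an r above 0.9 with Atp1b1, so they are given as a description. No pair among the 5 genes themselves reached 0.9. The highest values were 0.81, between Fxyd5 and each of Atp1b1 and Atp1b3. In DNPT replicate 1 these genes all lay below their vehicle mean.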

How the data were processed

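Cy3-labelled cRNA of each rat was read on its own Agilent array, per the labels' protocols, with Feature Extraction 10.7 by Agilent, per the submitters' processing notes. The scanner files that the authors deposited give a linear intensity for each spot; the processed signal used here was background-corrected by that software, per the file headers. A value table was deposited too. It is a linear ratio that matches the deposited processed signals up to 1 constant in each array, not centred, with array medians of 0.112 to 0.116; the sources used here do not say how it was made, and it served as an alternative.

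Control spots and 113 outlier values were left out. The measure was the log2 processed signal less the log2 75th percentile of that array. RefSeq accessions, stripped of versions, were looked up in a gene table of assembly GRCr8 that supplied names alone; 28206 of the 61537 probes found 1 gene and 0 found several. Testing took 44305 probes (well above background on 3 or more arrays, 2 or more values per group). A gene's brightest probe stood for it and unnamed probes for themselves, making 34915 features. The test was limma 3.58.1 under R 4.3.3 (lmFit, eBayes), two-sided, with Benjamini-Hochberg adjustment at 0.05; changes of further probes come from a fit over the 44305 probes. Permuting 3 against 3 cannot give a p below 0.1 and was not used. Named were all members and detected subunits, per list the 2 smallest p and the brightest probe, and the 2 genes most correlated with each member; exceptions are marked. Some genes of these lists are not reported here and were left out of the counts. Members and lists were chosen with earlier results of these data known. The fit was tested on simulated data. Python 3.11.15, pandas 2.3.3 and matplotlib 3.10.9 made tables and plots. Normexp used spot medians in place of the planned spot means.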

Additional observations from a re-analysis of the deposited data

How the results depend on the processing

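None of the 5 measured beta and FXYD genes was called under any of the 20 alternatives, and the lowest adjusted p of any of them there was 0.406 (Atp1b3). With so few rats this does not show that the levels are equal. The Atp1b2 change was positive under all 20 (0.05 to 0.37). The Atp1b1 change was -0.52 with slide as a fixed block and on slide 1 alone and -0.011 with slide as a random block, and -0.21 to 0.48 with each rat left out; slide as a fixed block and slide 1 alone rest on DNPT replicate 1, low for this gene, against the vehicle rats. The Atp1b3 change was -0.024 with quantile normalization, -0.010 with normexp, -0.20 with slide as a fixed block and on slide 1 alone, -0.026 with slide as a random block, and -0.057 to 0.14 with each rat left out. The Fxyd2 change was -0.051 with quantile normalization and -0.021 with normexp. The Fxyd5 change was -0.00416 with normexp, -0.095 with slide as a fixed block and on slide 1 alone, and -0.00402 to 0.10 with each rat left out. Over all features, normexp called 4 higher and 1 lower and slide as a fixed block 1 higher. Without DNPT replicate 1, 40 features were called higher and 583 lower, and without vehicle replicate 2, 3 higher; the other 4 omissions called 0. Without DNPT replicate 1 the remaining DNPT arrays are all of slide 2, so slide and treatment cannot be told apart there. Same-numbered rats did not deviate together (correlations -0.18, -0.06 and -0.18), and the replicate block called 0 features, with 3094 at an unadjusted p under 0.05 against 4227 without it. Arrays with the same column number did deviate together over all features. Their correlations were 0.27 in column 2, 0.26 in column 3 and 0.33 in column 4, and those of all other pairs were negative. Deviations were taken from each group's own mean, so a positive correlation of an array is offset by negative values among its other pairs. The negative values, those of same-numbered rats included, are therefore no separate evidence. With the array column as a block 0 features were called, with 4341 at an unadjusted p under 0.05. For the other alternatives with a value below 0, the cause was not tested.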
